A study of Mus musculus with 2 samples.

Results

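The genes described here are 8 glioma driver genes other than growth factor receptors, Braf, Daxx, Lztr1, Nf1, Trp53, Cic, Pik3ca and Idh1, and the question was where R-loop peaks lay in and around each of them. They were taken by symbol from the GENCODE M1 annotation of mouse genome mm9, in which all 8 were found among 37273 genes, 22367 of them protein-coding. A peak was assigned to a gene when it overlapped the gene or lay within 2 kb of it, and 15 of the 22132 peaks in the list were assigned in this way. The cells were primary neural stem/progenitor cells (NSPCs), cultured from frontal brains of C57BL/6 mice at postnatal day 7, and DRIP-seq was used to map their R-loops. The paper's methods give 0.5 μM aphidicolin for 48 h, an inhibitor of replicative DNA polymerases that causes mild replication stress, while the sample labels name no treatment. The 2 samples of the series are the DRIP sample and its input, and 1 peak list, that of the DRIP sample, was analysed here. It holds the coordinates of the peaks with no read count, signal or score, so that the depth behind a peak is unknown, no replicate error can be given, and every value below describes this 1 list without a test.

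An R-loop forms when RNA pairs with the template DNA strand and displaces the other strand, often where the displaced strand is rich in G. In DRIP-seq, genomic DNA is cut with restriction enzymes, fragments that carry RNA:DNA hybrids are pulled down by an antibody, S9.6, and their DNA is sequenced, without a record of which strand the RNA came from. The 8 genes act in the pathways that are most often altered in gliomas. Neurofibromin (Nf1) is a GTPase-activating protein that switches RAS off, Lztr1 is an adaptor of a ubiquitin ligase that limits RAS proteins, and Braf is the kinase that RAS activates. Pik3ca encodes the catalytic subunit of PI3K, and Trp53 encodes the tumour suppressor p53. Daxx is a chaperone that deposits a variant histone together with Atrx, Cic (capicua) is a repressor that MAPK signalling switches off, and Idh1 is the cytosolic isocitrate dehydrogenase.

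Of the 8 genes, 6 (75.0%) had at least 1 peak, compared to 43.1% of all protein-coding genes (9636 of 22367). This background was not matched on gene length. Its share rose from 26.4% under 10 kb, a class with only Daxx of the 8, to 65.0% from 100 kb. The paper had already named Daxx and Lztr1 among genes that form R-loops in these cells and are altered in gliomas. The 8 were chosen with earlier results of these data known. Nf1 had 5 peaks, Cic and Idh1 had 3 each, Daxx had 2, and Lztr1 and Pik3ca had 1 each. No peak lay in or within 2 kb of Braf or Trp53. At least 2 peaks were assigned to 4 of the 8 genes, against 21.0% of protein-coding genes of all lengths. Of the 15 peaks, 13 overlapped the gene itself and 2 lay beyond its end, 1 at Cic and 1 at Idh1. The number of peaks did not follow the share of the gene that they covered: Nf1, with the most peaks, was covered over 1.78% of its length, and Cic, with 3, over 65.0%. With 8 genes and 1 list, these shares describe the genes named and nothing wider.

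**Figure D1:**
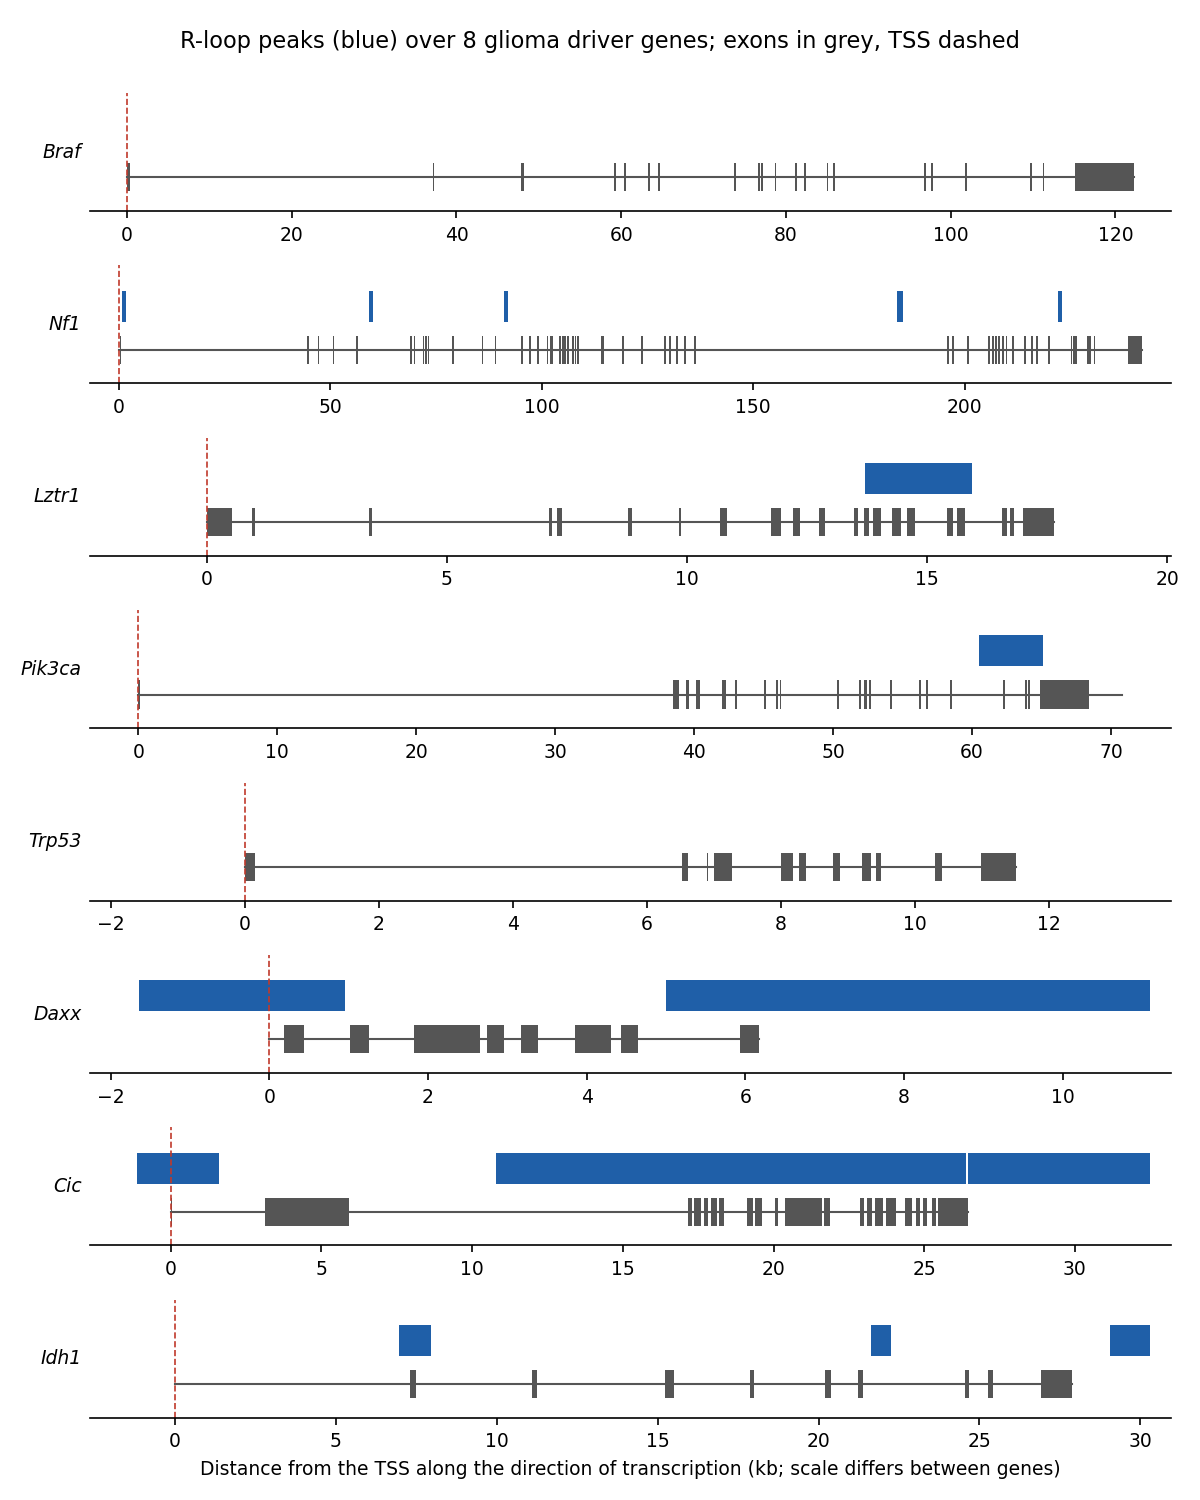
R-loop peaks (blue boxes) above the exons (grey boxes) of 1 transcript of each of the 8 genes, against the distance from the transcription start site (TSS, dashed) in the direction of transcription, in kb. The scale differs between genes, and boxes too narrow to see are drawn wider than they are. Braf and Trp53 carry no box above the exons, Daxx and Cic have a peak across the start, and the 15.6 kb peak of Cic fills most of the gene's 3′ part.

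To show the sequence at these places, the 100 bases of the coding strand in which G most outnumbered C were read from the mm9 genome, either within the first 1 kb after the TSS or within a peak, leaving out annotated UTRs. They are written 5′ to 3′ on the coding strand, and capitals mark runs of at least 3 G. The first pair are the starts of Cic and Daxx, which lie in peaks. The next 3 are from the starts of Nf1, Trp53 and Braf, which do not. The last 4 are from peaks inside Idh1, Lztr1 and Pik3ca and from the peak across the end of Daxx. The window of Braf lies in a coding exon, and that of the Daxx end peak lies outside Daxx, within the neighbouring genes Zbtb22 and Tapbp. The others are intronic.
Cic start, chr7:26053593-26053692, plus strand: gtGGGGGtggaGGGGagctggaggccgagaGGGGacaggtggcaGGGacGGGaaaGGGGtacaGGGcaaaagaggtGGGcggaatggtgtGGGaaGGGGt
Daxx start, chr17:34046852-34046951, plus strand: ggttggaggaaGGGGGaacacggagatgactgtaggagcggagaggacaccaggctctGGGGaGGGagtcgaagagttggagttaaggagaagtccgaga
Nf1 start, chr11:79153592-79153691, plus strand: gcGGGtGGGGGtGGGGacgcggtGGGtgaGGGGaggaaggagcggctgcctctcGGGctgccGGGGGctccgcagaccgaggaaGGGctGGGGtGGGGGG
Trp53 start, chr11:69394095-69394194, plus strand: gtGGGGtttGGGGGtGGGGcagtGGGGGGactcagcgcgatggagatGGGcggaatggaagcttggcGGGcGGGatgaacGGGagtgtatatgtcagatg
Braf start, chr6:39675194-39675293, minus strand: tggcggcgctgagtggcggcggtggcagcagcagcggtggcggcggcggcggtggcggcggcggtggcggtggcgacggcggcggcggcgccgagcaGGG
Idh1 inner peak, chr1:65225258-65225357, minus strand: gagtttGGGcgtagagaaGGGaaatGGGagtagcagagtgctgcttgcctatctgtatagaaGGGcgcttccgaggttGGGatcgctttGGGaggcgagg
Lztr1 peak, chr16:17523905-17524004, plus strand: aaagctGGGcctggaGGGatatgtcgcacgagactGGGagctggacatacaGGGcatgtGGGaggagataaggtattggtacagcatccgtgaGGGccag
Pik3ca peak, chr3:32358619-32358718, plus strand: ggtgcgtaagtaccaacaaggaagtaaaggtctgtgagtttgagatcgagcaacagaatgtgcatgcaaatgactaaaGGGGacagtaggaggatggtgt
Daxx end peak, chr17:34053281-34053380, plus strand: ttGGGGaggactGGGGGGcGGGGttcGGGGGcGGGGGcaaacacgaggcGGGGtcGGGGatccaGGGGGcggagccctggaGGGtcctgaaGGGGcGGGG

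In these windows, Cic held 58 G and 9 C with 10 runs of G, and Daxx held 46 G and 12 C with 3 runs. The start of Nf1, which lay outside the nearest peak, held 59 G and 19 C with 10 runs, and that of Trp53, far from any peak, held 52 G and 11 C with 8 runs. Braf had as many G as Nf1, 59, but 26 C and 1 run, since its exon repeats short GGC units. A window dense in G runs was thus present at starts with a peak (Cic) and without one (Nf1, Trp53). The other starts without a peak, not printed above, held fewer runs. These were 2 at Lztr1 (29 G, 18 C), 5 at Pik3ca (29 G, 3 C) and 0 at the gene limit of Idh1 (31 G, 9 C). Within peaks, the windows of Idh1 (42 G, 14 C), Lztr1 (40 G, 17 C) and Pik3ca (34 G, 12 C) held 6, 6 and 1 runs, and that of the Daxx end peak held 59 G, 18 C and 11 runs. Windows at starts were picked from 1 kb and those within peaks from peaks of differing width, so their counts are not comparable.

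Among the genes that govern RAS, Nf1 (ENSMUSG00000020716, chr11:79153195-79395114, plus strand) was the longest at 242 kb and had the most peaks. Of all protein-coding genes, 96.9% had fewer peaks than Nf1, but most of these are shorter. Among genes with lengths around 199.5 kb, the median was 1 peak and the 90th percentile 7, so that Nf1 lay within this range. The 5 peaks were 0.671, 0.697, 0.497, 1.40 and 1.03 kb wide, in the order of transcription. All 5 lay wholly in introns. The first began 744 bp after the TSS, so that it missed the start, and the others began 59.2, 91.1, 184 and 222 kb from it. The gaps between neighbouring peaks were 57.8, 31.2, 92.5 and 36.6 kb, so that the peaks were spread over the gene rather than grouped. The fourth, chr11:79337315-79338713, also overlapped Evi2b, a gene of the opposite strand that lies inside an Nf1 intron, and without strand information hybrids of the 2 genes cannot be told apart there. Omg, which encodes a myelin glycoprotein, and Evi2a also lie inside Nf1 on the opposite strand and had no peak. None of the 5 peaks held a restriction site, and their edges lay 137 to 1197 bp from the nearest one.

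Lztr1 (ENSMUSG00000022761, chr16:17508781-17526426, plus strand, 17.6 kb) had 1 peak of 2.23 kb, chr16:17522488-17524716, which began 13.7 kb after the TSS and reached from exon 13 to exon 18 of 21. Of its bases, 38.9% were exonic, all of them coding, and it covered 12.6% of the gene. Its GC content was 55.1%, against 49.9% in the remainder of Lztr1. The neighbours within 2 kb, Aifm3 upstream and Thap7 downstream, had no peak.

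Braf (ENSMUSG00000002413, chr6:39553236-39675462, minus strand) is 122 kb long and was the longest of the 8 genes after Nf1, yet had no peak. Of the protein-coding genes of at least 100 kb, 65.0% had one. The nearest peak, chr6:39546636-39550726, lay 2.51 kb beyond the end of Braf and was 4.09 kb wide. It fell in Ndufb2, a gene for a subunit of respiratory complex I that is transcribed towards Braf and overlaps its last bases, and a second peak in Ndufb2 lay 9.59 kb from Braf. From the TSS of Braf, the nearest peak was 78.2 kb away. GC content was 38.7% over the whole gene and 67.0% in the first 1 kb, where the Nf1 start had 67.8%.

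Pik3ca (ENSMUSG00000027665, chr3:32296593-32367408, plus strand, 70.8 kb) had 1 peak of 4.62 kb, chr3:32357078-32361700. It began 60.5 kb after the TSS and reached from exon 18 to exon 21, the last, of Pik3ca-001. It covered 6.53% of the gene, and 14.3% of it was exonic. As in Lztr1, the peak lay towards the end of the gene and reached into coding exons, and the start had none. Among all peaks, 11.4% were at least as wide.

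Trp53 (ENSMUSG00000059552, chr11:69393861-69405375, plus strand, 11.5 kb) had no peak, although the surrounding region was the richest of the 8 in peaks. Within 500 kb to each side there were 46 peaks, or 45.5 per Mb, against 10.7 per Mb around Idh1, 21.4 around Braf and 39.0 around Cic. The nearest was a 0.989 kb peak 5.27 kb upstream, in Wrap53, a gene that starts next to Trp53 and is transcribed away from it. Downstream, peaks of 1.23 and 6.97 kb lay 7.44 and 9.30 kb from the end, both in Atp1b2, which encodes a subunit of the sodium pump. Trp53 itself thus lay in a stretch without peaks between neighbours that had them. The first 1 kb had a GC content of 53% and a GC skew of 0.0755, above that of 65.4% of protein-coding genes.

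Daxx (ENSMUSG00000002307, chr17:34046359-34052534, plus strand) is the shortest of the 8 genes at 6.18 kb and had a peak at each end. The first, chr17:34044714-34047311, was 2.60 kb wide and held the TSS, with 5 of the 6 annotated protein-coding transcript starts. It continued upstream over BC051226, a noncoding gene of the opposite strand that starts next to Daxx. The second, chr17:34051357-34057463, was 6.11 kb wide and held the transcription end site (TES). It ran on over Zbtb22, a zinc finger gene, and into Tapbp, which encodes tapasin, a chaperone of antigen presentation. Of the peak's bases, 4929 lay outside Daxx. Zbtb22 and Tapbp are also on the plus strand, and the peak held their starts, at 34052849 and 34052844, and all of Zbtb22. An R-loop at the end of Daxx cannot be told apart here from one at these starts. The middle of Daxx, a gap of 4.04 kb, was free of peaks. The part inside peaks had a GC skew of 0.226, compared to -0.0358 in the part outside, while GC content was 53.1% and 53.9%.

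Cic (ENSMUSG00000005442, chr7:26052723-26079178, plus strand, 26.5 kb) carried the widest peak of the 15. The first peak, chr7:26051618-26054320, was 2.70 kb wide and held the TSS. The second, chr7:26063518-26079115, was 15.6 kb wide, and 0.542% of all peaks were at least as wide. It reached from exon 3 to exon 21, the last, of Cic-001, and 39.4% of it was exonic. The starts of 6 shorter protein-coding transcripts, among them Cic-002, also lay in it. The third peak, chr7:26079187-26085221, was 6.04 kb wide and began 71 bp after the second ended, with the TES of Cic in the gap. It covered Pafah1b3, which encodes a subunit of an acetylhydrolase and is transcribed towards Cic. An SspI site at 26079108 lay 7 bp from the end of the second peak and 79 bp from the start of the third. Whether this cut divides 1 longer R-loop region was not tested, and with peaks closer than 1 kb merged, the TES of Cic would lie in a peak.

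Idh1 (ENSMUSG00000025950, chr1:65205190-65233053, minus strand, 27.9 kb) had no peak at the start that the gene limits give, which is the start of a single protein-coding transcript. Its first peak, chr1:65225108-65226095, was 0.988 kb wide and began 6.96 kb into the gene. It held the starts of Idh1-001 and of another transcript, which lie 7.30 and 7.34 kb from the gene limit. It had the highest GC content of the 15 peaks at 58.3%, and a GC skew of 0.142. The second, chr1:65210804-65211408, was 0.605 kb wide and intronic. The third, chr1:65202747-65203989, was 1.24 kb wide and lay just beyond the end of the gene. Counted by the start of any protein-coding transcript, the members with a start in a peak were therefore 3, Daxx, Cic and Idh1, where the gene limits gave 2. The background share given below uses the gene limits and was not computed by this rule.

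By the gene limits, the TSS lay in a peak in 2 of the 8 genes (25.0%), against 14.9% of all protein-coding genes. The TES lay in a peak in 1 gene (12.5%), Daxx, against 10.9%. That peak also held the starts of Tapbp and Zbtb22. In a set of 8, 1 gene is 12.5%, so neither share is apart from the background by more than 1 gene. Of the 13 peaks that overlapped a member, 5 had their midpoint in the last of 4 equal parts of the gene, 3 in the first part, 2 in the second and 1 in the third, and 2 had it outside the gene. Over all pairs of a protein-coding gene and an overlapping peak, 26.1% of midpoints lay in the last part and 25.8% in the first.

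**Figure D2:**
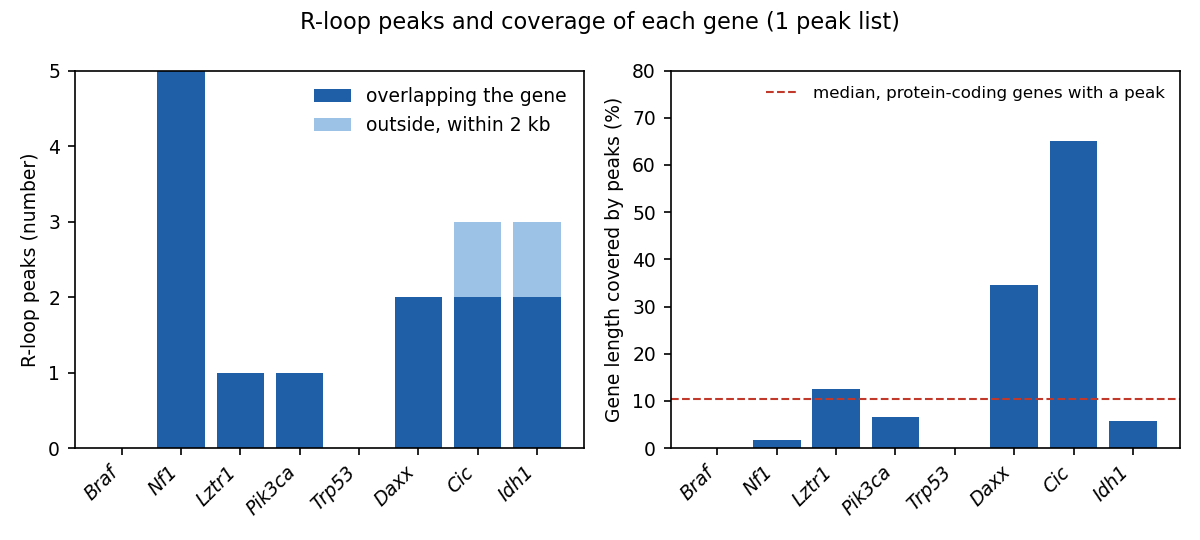
Left, the number of R-loop peaks that overlap each of the 8 genes (dark blue) or lie outside it within 2 kb (light blue). Right, the percent of the gene's length covered by peaks, with the median of protein-coding genes that have a peak, 10.4%, dashed. Nf1 is highest on the left with 5 peaks, and Cic is highest on the right with 65.0%.

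Coverage separated the genes more than the number of peaks did. In order, peaks covered 65.0% of Cic, 34.5% of Daxx, 12.6% of Lztr1, 6.53% of Pik3ca, 5.72% of Idh1 and 1.78% of Nf1, and none of Braf and Trp53. The median of the 8858 protein-coding genes that a peak overlapped was 10.4%. Cic lay above 88.9% of these genes, Daxx above 76.7% and Nf1 above 18.2%. Coverage falls with gene length, since the median where a peak was present was 52.8% for genes under 10 kb, the class of Daxx. It was 15.8% from 10 to 30 kb, the class of Cic, Lztr1 and Idh1, and 1.23% from 100 kb, the class of Nf1. Read against genes of their own length, Daxx, Lztr1 and Idh1 were thus below the median, Nf1 and Pik3ca (class median 5.24%) were above it, and Cic was far above it. Over the summed length of the 8 genes, peaks covered 6.11%.

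The share of genes with a peak rose with gene length, from 26.4% under 10 kb to 48%, 56.3% and 65.0% in the classes from 10, 30 and 100 kb. Of the 4 members from 10 to 30 kb, Trp53 alone had none, and of the 2 from 100 kb, Nf1 had 5 and Braf none. Braf and Nf1, both over 100 kb, therefore stood at opposite ends of the 8, with no peak and with the most. Their GC content was similar in the first 1 kb after the TSS (67.0% and 67.8%) but not over 2 kb to each side of it, with 47.6% at Braf and 52.7% at Nf1.

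**Figure D3:**
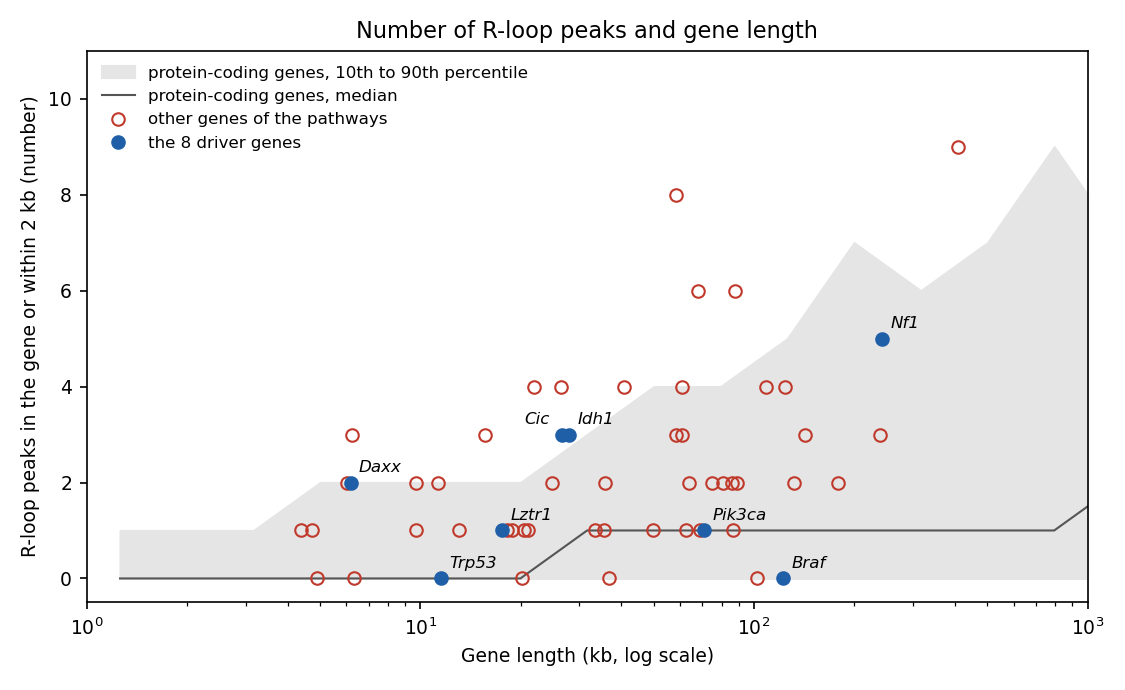
Number of R-loop peaks in each gene or within 2 kb of it against gene length in kb (log scale). Filled points are the 8 genes, open points the other genes of their pathways, the line is the median of protein-coding genes of that length and the grey band their 10th to 90th percentile. Braf and Trp53 sit at 0, and Nf1, with 5 peaks at 242 kb, is inside the band.

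The 15 peaks were not unusual in width or composition beside the other peaks of the list. Their median width was 1.40 kb (0.497 to 15.6 kb), compared to 1.32 kb for all 22132. Their median GC content was 48.4% (37.0 to 58.3%), compared to 48.7%. The peaks of Nf1 were poorer in GC, from 37.0 to 48.4%, than those at the starts of Cic (54.3%), Daxx (58.1%) and within Idh1 (58.3%). On the coding strand of the member, 10 of the 13 overlapping peaks (76.9%) held more G than C, compared to 66.1% of the 14917 peaks that overlapped a single protein-coding gene. The 2 sets are unlike, since the fourth peak of Nf1 and the second of Daxx also overlapped other protein-coding genes. The GC skew, (G - C)/(G + C), of single peaks ran from -0.0813 in the second peak of Idh1 to 0.191 at the start of Cic. In the 15.6 kb peak of Cic, G and C were nearly balanced, with a skew of 0.00851 and 368 runs of G beside 377 runs of C.

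**Figure D4:**
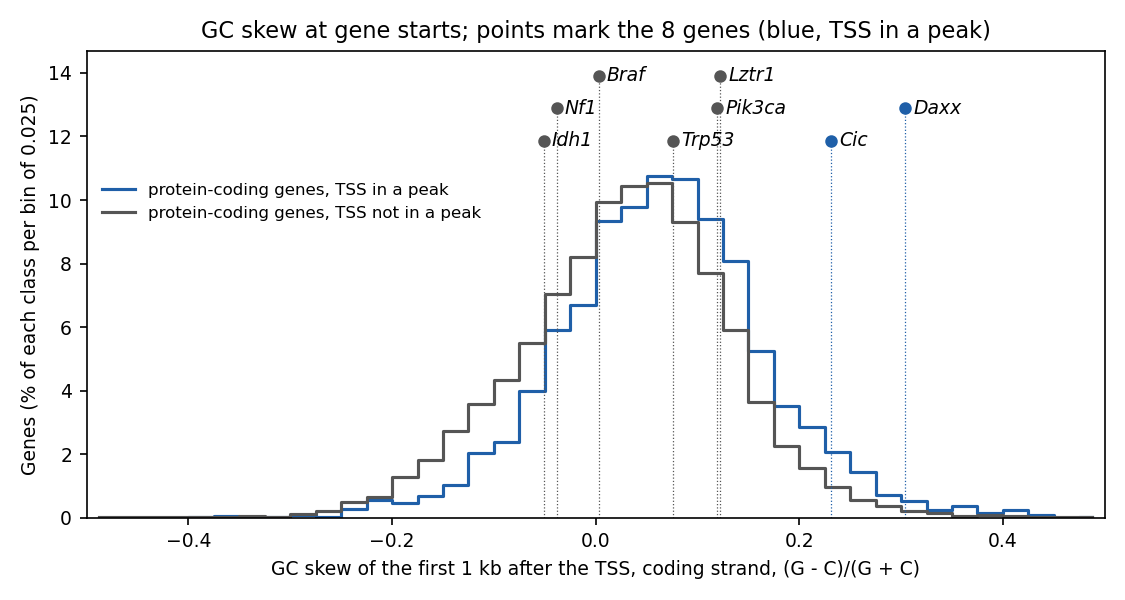
GC skew of the first 1 kb after the TSS on the coding strand, as the percent of protein-coding genes per bin, for genes with the TSS in a peak (blue line) and without (grey line). Points mark the 8 genes, blue where the TSS lies in a peak. Daxx (0.304) and Cic (0.231) are the points furthest to the right in this window, and both are blue, while in the first 500 bp Cic (0.0615) was below Idh1, Trp53 and Lztr1.

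In the first 1 kb after the TSS, the GC skew was 0.304 in Daxx and 0.231 in Cic, above 99.2% and 97.3% of protein-coding genes. These are the 2 members whose TSS lay in a peak. The place of Cic depended on the window, since its skew was 0.0615 in the first 500 bp and 0.311 in the first 2 kb. In the first 500 bp, Cic was thus below Idh1 (0.129), Trp53 (0.123) and Lztr1 (0.102), whose TSS lay in no peak. Daxx had 0.293 in the first 500 bp and 0.164 in the first 2 kb. Lztr1 (0.122) and Pik3ca (0.119) fell in the same highest quintile of genes, without a peak at the start. Trp53 had 0.0755, Braf 0.00299, Nf1 -0.0383 and Idh1 -0.0510. The values of Idh1 are those of its gene limit, while the start of Idh1-001, 7.30 kb further in, lay in a peak. Across all protein-coding genes, the share with the TSS in a peak was 9.03% in the lowest quintile of skew and 21.4% in the highest. The signs of the 3 values nearest to 0 or below it depend on the window: Braf became -0.0919 and Nf1 0.00271 in the first 2 kb, and Idh1 became 0.129 in the first 500 bp.

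Since DRIP recovers restriction fragments, the fragment that holds each TSS was measured, a comparison added after the peaks had been seen. The DNA had been cut with EcoRI (GAATTC), HindIII (AAGCTT), BsrGI (TGTACA), SspI (AATATT) and XbaI (TCTAGA), each of which reads the same on both strands. The fragment was 0.682 kb at Trp53 and 0.680 kb at the gene-limit start of Idh1, both in the shortest quintile of protein-coding genes. At Lztr1 it was 1.24 kb. It was 1.62 kb at Braf, 1.78 kb at Pik3ca and 2.20 kb at Cic, and reached 2.57 kb at Nf1 and 3.19 kb at Daxx, both in the longest quintile. Over all protein-coding genes, the share with the TSS in a peak was 2.26, 5.16, 13.6, 20.7 and 32.6% from the shortest to the longest quintile of fragments. The median fragment was 2.39 kb where the TSS lay in a peak and 1.39 kb where it did not.

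**Figure D5:**
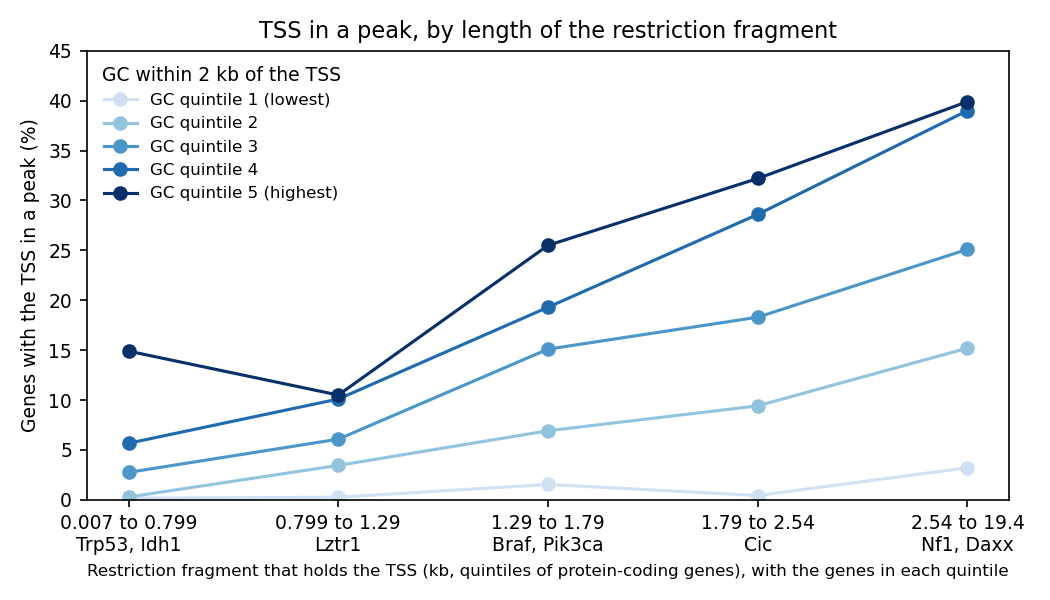
Percent of protein-coding genes with the TSS in an R-loop peak, by quintiles of the length of the restriction fragment that holds the TSS (x axis, kb, with the genes of each quintile named) and by quintiles of the GC content around the TSS, 2 kb to each side (lines). The lines of GC quintiles 2 to 4 rise at every step, in quintile 4, which holds Trp53, Lztr1 and Cic, from 5.67% to 39.0%, while those of quintiles 1 and 5 dip in places.

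Among genes of similar GC content, the share rose at every step in GC quintiles 2 to 4. In quintile 5 it fell from 14.9% to 10.5% between the 2 shortest classes and rose after them, and in quintile 1 it was at most 3.21%. In quintile 4 of the GC content around the TSS, 2 kb to each side, the share with the TSS in a peak was 5.67% for the shortest fragments, the class of Trp53. It was 10.1% in the class of Lztr1, 28.6% in that of Cic and 39.0% for the longest. In GC quintile 2 it was 0.285% in the class of Idh1, and in the highest it was 39.9% in the class of Nf1 and Daxx. The start of Nf1 was therefore without a peak although its class had among the highest shares, and its first peak began 744 bp downstream, in the same fragment up to the SspI site at 79155136. What part the fragments have in the missing peaks at the gene-limit starts of Trp53 and Idh1 was not tested. At Idh1, the start of Idh1-001, 7.30 kb further in, did lie in a peak. Among the edges of the 15 peaks, 9 of 30 (30%) lay within 100 bp of a site, against 28.3% of all edges. These were at the 2 peaks of Daxx, the 3 of Cic, the peak of Pik3ca and the third of Idh1. A site was absent from 9 of the 15 peaks (60.0%), against 52.3% of all peaks, and the widest peak of Cic held 14.

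Other genes of the same pathways were read from a list of 47, which was drawn up with earlier results of these data known. At least 1 peak was assigned to 42 of them (89.4%), beside the 43.1% of all protein-coding genes, with a median of 2.00 peaks. The list was not matched to the background on gene length. The TSS lay in a peak in 17 of the 47 and the TES in 11, beside 14.9% and 10.9% of all protein-coding genes. In the RAS-MAPK group, 12 of 13 genes had a peak, led by the kinase Map2k1 with 6 and the inhibitor Spred1 with 4. Hras, annotated as Hras1 in this build, had none, and the nearest peak lay 19469 bp away. In the PI3K group, 6 of 8 had a peak, led by the regulatory subunit Pik3r1 with 6 and the kinase Mtor with 4. Pik3cb, which encodes another catalytic subunit, and Tsc2, an inhibitor of Mtor signalling, had none.

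In the p53 and cell cycle group, 8 of 10 had a peak. The ubiquitin ligase Mdm2, which degrades p53, had 4 peaks over 41.9% of its length, including its TSS, and Rb1 had 3. Cdkn2a and Cdkn2c, which encode cell cycle inhibitors, had none. Trp53 was thus without a peak while its main inhibitor had several. All 6 chromatin genes had a peak, led by the corepressor Bcor with 4, and Atrx, the partner of Daxx, had 2 peaks over 0.489% of its 132 kb, with the TSS in one. H3f3b, Setd2 and Smarcb1 also had 2 each. All 6 genes of the group drawn up around Cic had a peak. Atxn1, a binding partner, had the most with 9, followed by Etv5, a target that Cic represses, with 8 over 43.2% of its length. Of the 4 isocitrate dehydrogenases and enzymes that use the product of Idh1, the prolyl hydroxylase Egln1 had 4 peaks and the DNA demethylase Tet2 had 2. Idh2, the mitochondrial counterpart of Idh1, had 1 peak over 12.1% of its length.

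The cell type named in the labels was set beside marker genes, with the limit that a peak is not a measure of expression. A peak was assigned to 8 of 10 markers of neural stem and progenitor cells, among them Nes, Sox2, Vim and Slc1a3, while Pax6 and Fabp7 had none. It was assigned to 1 of 3 neuronal markers (Syn1), 1 of 4 microglial markers (Csf1r) and 2 of 3 endothelial markers (Pecam1 and Kdr). Of all protein-coding genes, 43.1% had a peak.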

How the data were processed

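DRIP-seq had been performed on primary NSPCs, with 3 DRIP reactions pooled per library and 3 biological replicates per the labels and the paper's methods. The authors trimmed the reads with Trim Galore 0.6.6, mapped them to the mm9 build and discarded duplicate reads, and a Hidden Markov Model defined the peaks. They deposited 1 list of peak positions with no counts or scores. How the replicates were combined is not given in the sources used here, and the input sample was not analysed here. Depth is therefore unknown.

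Peaks were read as 1-based intervals and compared with the GENCODE M1 annotation and the mm9 sequence, counting overlaps from 1 bp. The TSS and TES were the limits of the gene. Restriction sites of 5 enzymes were found by exact match. Background shares were taken over all protein-coding genes. Hras was matched through a RefSeq synonym. The overlap step was run on simulated peaks placed at gene starts of chromosome 19, where 200 of 200 planted starts were found. Since the peaks were placed on these starts, this checks the counting code only. Python 3.11.15, numpy 2.4.6, scipy 1.17.1 and matplotlib 3.10.9 were used.

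The members and gene lists were chosen with earlier results of these data known. Genes were named by a rule: the 8 members, genes that share a peak with one or lie inside one, and in each pathway group the 2 genes with the most peaks, with ties, and those without a peak. Pseudogenes and a noncoding gene that lie inside Nf1 or Braf, none with a peak, were left unnamed. Atrx, Idh2, the neighbours of the members and some marker genes were named besides. Results for some genes of the lists are not reported here. Alternatives were other distances, peaks of at least 1 kb, merged peaks, peak midpoints, other starts and ends, and other windows for GC skew.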

Additional observations from a re-analysis of the deposited data

How the results depend on the processing

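The count of members with a peak was 6 with 0 kb added, with peaks of at least 1 kb, with merged peaks and by midpoints. It became 7 with 5 kb (Braf added) and 8 with 10 kb (Trp53 added). The share over all protein-coding genes was not computed under any of these alternatives, so none of these counts has a background. The 43.1% holds for 2 kb. The 15 assigned peaks became 23 with 10 kb. The members with the TES in a peak, 1 by the gene limits, became 2 by the end of any protein-coding transcript. Cic was added there through the ends of Cic-007 and Cic-015, which lie inside the gene. The count was also 2 with peaks closer than 1 kb merged, chosen after seeing the data, with Cic added by its gene limit. The share over all protein-coding genes was not computed by either of these rules. The 6.11% of summed gene length covered became 5.45% with peaks of at least 1 kb and 7.12% with 2 kb added to each side. With peaks of at least 1 kb, Nf1 retained 2 of 5 peaks and Idh1 1 of 3, which lies outside the gene. The sign of the GC skew turned for Braf in the first 2 kb (-0.0919), for Nf1 in the first 2 kb (0.00271) and for Idh1 in the first 500 bp (0.129), and the cause was not tested. That of Cic ranged from 0.0615 in the first 500 bp to 0.311 in the first 2 kb. The background share was 30.8% over all annotated genes in place of 43.1%. Among the values of single genes and the background share, 49 alternatives were close to the reported value, counts within 1.5 times and shares equal as printed, 29 were not and 3 turned sign. Leaving out a replicate was not run, since the list has no replicate columns. No paired analysis was possible because 1 list was deposited for 1 group.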

Other observations

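Peaks of at least 10 kb, which were 1.94% of all peaks, also lay near Cic and Daxx. The share of genes with such a peak nearby was not computed, so no link to a peak at the start can be read from this. Upstream of Cic, 15.4 kb from it, a peak of 11.3 kb overlapped Erf, which encodes a repressor that ERK controls, with a GC content of 58.3%, close to the 58.0% of the widest peak in Cic. Downstream of Daxx, 8.89 kb from its end, a peak of 13.4 kb lay over Tapbp and Rgl2, an effector of RAS-like GTPases, with a GC content of 56.2%. By width, the peak near Daxx ranked 183 and the widest peak of Cic ranked 120 of 22132. Erf and Rgl2 were named after their values had been seen.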
